A study of Mus musculus with 4 samples.

Results

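Mechanosensitive ion channels are described here as the 10 genes Piezo1, Piezo2, Trpv4, Trpv2, Trpc1, Trpc6, Pkd1, Pkd2, Kcnk2 and Trpm7. They were taken by gene symbol from tables of 24063 symbols, and each was represented by its most counted RefSeq transcript, summed over the 4 libraries. All 10 had counts in every library and passed the filter on low counts, as did 16208 genes in all. RNA was sequenced from lung endothelial cells (ECs) of C57BL6 mice (C57BL6J in the study's methods), 8 weeks old, that had undergone unilateral pneumonectomy (PNX, removal of the left lung) 7 days earlier or a sham operation, which opened the chest without PNX. The labels name no transgene, allele or drug for either group. There were 2 libraries per group, each pooled from 2 mice, so p-values measure the spread between pools, not between animals. That spread was small, with a median SD within groups of 0.045 on the log2 scale over all genes tested. It was little above counting error, so small p-values say little about how animals vary. Cells were selected with magnetic beads that bind CD31, a surface protein of ECs that platelets and some leukocytes also carry.

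Stretch-activated channels open when the membrane is put under tension and let cations into the cell, mostly calcium and sodium, or let potassium out. Endothelium is exposed to blood flow and pressure, and Piezo1 and Trpv4 are the channels best known for calcium entry in response to flow in these cells. The question put to the data was whether the RNA of these sensors differed between post-PNX and sham ECs, since the study examined how raised pulmonary artery pressure acts on ECs.

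The libraries held between 41367438 and 50952879 counts with 1 transcript per symbol, and 3 counts, the smallest level taken as measured, lay between 0.0589 and 0.0725 CPM, counts scaled to library size (a floor for counting error only). The animals are labelled male, yet none of 44 chromosome Y genes had a count and Xist, which is transcribed from an inactive X chromosome, had between 29890 and 36875 counts, in all 4 libraries, so no result could be given without such libraries. Pecam1 (CD31), the protein used for selection, had a mean deposited FPKM of 374 in both groups, but it was the 1 of 12 EC markers that did not pass the test below. Of these markers 9 were lower after PNX and 2 higher, with a median log2 fold change of -0.22, and their sum was 0.862 of the sham sum. The study's methods state that the isolated ECs were checked for EC markers by flow cytometry (FACS), but the libraries also held RNA of other cell types. Sftpc, the surfactant protein of alveolar type 2 cells, had a mean FPKM of 2893 in sham and 1889 after PNX, and Lyz2, a lysozyme of myeloid cells, had 1859 and 2156. In such a mixture, fewer cells of a type and less RNA per cell cannot be told apart.

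The promoters of the genes that moved most are shown first, because they are the stretches of DNA next to which these transcripts are annotated to begin. Each is the 250 bases before a transcript start in RefSeq on GRCm38.p6 (mm10), read 5′ to 3′ on the gene's own strand. Capitals mark the letters CATTCC or GGAATG, the core of the sites that TEAD factors (partners of YAP1) bind, and GGGCGG or CCGCCC, the GC box. No matches overlapped.
Trpc6, chr9:8543892-8544141, plus strand, the gene with the largest rise: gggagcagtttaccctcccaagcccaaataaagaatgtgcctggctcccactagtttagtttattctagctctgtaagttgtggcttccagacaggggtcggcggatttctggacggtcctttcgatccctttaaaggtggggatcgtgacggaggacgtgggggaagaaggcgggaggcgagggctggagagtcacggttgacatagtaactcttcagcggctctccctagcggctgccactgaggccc
Trpv4, chr5:114658422-114658671, minus strand, the next rise: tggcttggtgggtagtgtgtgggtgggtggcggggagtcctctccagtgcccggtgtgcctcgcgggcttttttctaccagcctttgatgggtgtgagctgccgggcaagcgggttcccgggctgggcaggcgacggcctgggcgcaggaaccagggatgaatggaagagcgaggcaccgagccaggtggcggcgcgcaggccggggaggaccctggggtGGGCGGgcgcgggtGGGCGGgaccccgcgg
Kcnk2, chr1:189343708-189343957, minus strand, the gene with the largest fall: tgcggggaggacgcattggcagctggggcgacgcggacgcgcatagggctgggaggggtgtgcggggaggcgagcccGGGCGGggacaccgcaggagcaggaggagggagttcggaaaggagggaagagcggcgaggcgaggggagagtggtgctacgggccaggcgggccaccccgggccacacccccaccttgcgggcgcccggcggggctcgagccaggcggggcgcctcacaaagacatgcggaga
Pkd2, chr5:104459207-104459456, plus strand, the next fall in percent: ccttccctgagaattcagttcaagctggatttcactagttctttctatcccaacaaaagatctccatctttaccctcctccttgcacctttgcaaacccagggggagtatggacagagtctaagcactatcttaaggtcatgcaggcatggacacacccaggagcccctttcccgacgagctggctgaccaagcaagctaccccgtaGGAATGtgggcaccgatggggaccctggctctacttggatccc
The Pkd2 window held the TEAD core 43 bases before the start, the Trpv4 window 2 GC boxes, the Kcnk2 window 1 GC box and the Trpc6 window neither motif. Windows were found for 9 of the 10 genes. Among their 14 windows, since Trpv2 and Kcnk2 have several starts, 3 held the TEAD core on either strand and 5 a GC box. Over 32851 windows of the same length, 12.6% held the TEAD core and 32.7% a GC box. The other matches to the TEAD core were in windows of Kcnk2 and Trpv2 that lie 60 and 1089 bases from the nearest start of a counted transcript. All of these are matches of letters, and no binding was measured. The Kcnk2 transcripts counted shared nearly all their reads, so which of its starts was in use is not known.

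After PNX, 4 of the 10 channel genes rose, 5 fell and 1 did not pass the test (adjusted p under 0.01 in edgeR quasi-likelihood F test, Benjamini-Hochberg correction over 16208 genes). Trpc6 rose most, by 52.7%, followed by Trpv4 (28.4%), Trpv2 (16.9%) and Piezo2 (10.6%). Kcnk2 had the largest fall, with a change of -44.2%, and Pkd2, Trpc1, Pkd1 and Trpm7 changed by -18.3%, -16.5%, -8.01% and -7.92%, the last pair turning higher when counts were scaled to EC markers. Piezo1 had nearly the same level in both groups. Among all genes tested 57.1% passed, 29.3% higher and 27.8% lower, so the 9 of 10 members that passed are read against 57.1%. No member passed the study's second limit, a log2 fold change beyond 1, in edgeR or in DESeq2, nor at an unadjusted p under 0.05, while 7.56% of all genes did with the adjusted p (5.9% higher and 1.66% lower). The median log2 fold change of the members was -0.05, beside 0.00 over all genes.

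These directions are relative to the whole library. When counts were scaled to 12 EC marker genes in place of the TMM method, the median of all genes moved from 0.00 to 0.22 on the log2 scale, and 7 members were higher and 2 lower. Piezo1 then passed as higher (log2 fold change 0.23), Pkd1 and Trpm7 turned to 0.09 (edgeR adjusted p = 1.35e-04 and 0.00338), and Trpc1 no longer passed (-0.05, edgeR adjusted p = 0.603). Trpc6, Trpv4, Trpv2 and Piezo2 stayed higher (0.82, 0.58, 0.44 and 0.36 with EC markers) and Kcnk2 and Pkd2 lower (-0.63 and -0.08) under both scalings. Relative to the moved median the log2 fold changes were the same to within 0.01.

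**Figure D1:**
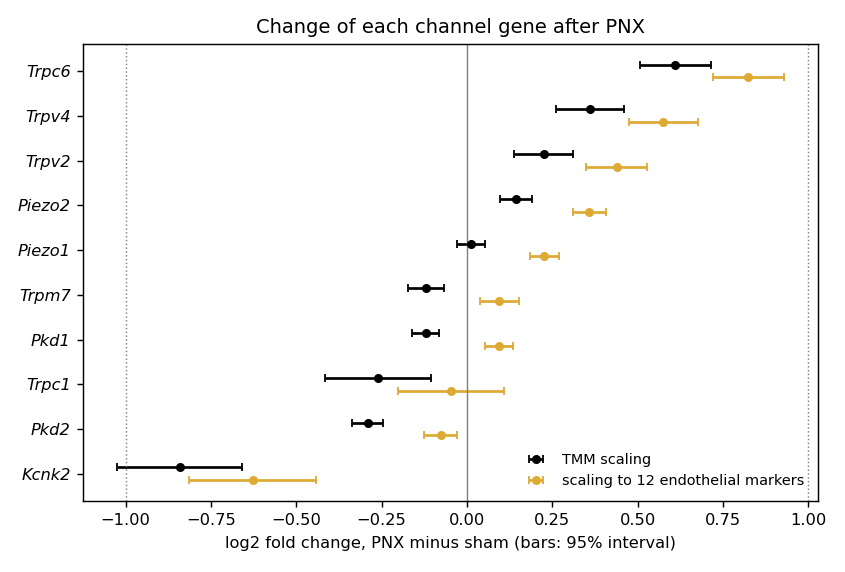
Log2 fold change of each channel gene, post-PNX minus sham (x axis), with bars for the 95% interval from edgeR, under TMM scaling (black) and scaling to 12 EC markers (yellow); dotted lines mark a log2 fold change of -1 and 1. Trpc6 lies highest at 0.61 and Kcnk2 lowest at -0.84 under TMM, and each yellow point lies to the right of its black point.

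Per transcript length, the 10 genes spanned a wide range of levels. The deposited FPKM (counts scaled to transcript length and to the library's total) in the sham libraries was highest for Pkd2, at 24.0 ± 0.127 (SD, n = 2), and Piezo1, at 20.9 ± 0.0746. Pkd1 had 14.7 ± 0.131, Trpm7 10.95 ± 0.0574 and Piezo2 8.98 ± 0.0945. The lower levels were those of Trpv2 (6.66 ± 0.176), Trpv4 (4.17 ± 0.0919), Trpc6 (3.13 ± 0.0156), Trpc1 (2.03 ± 0.0476) and Kcnk2 (1.53 ± 0.00669). The ranges of neighbours in this order did not overlap between the 2 sham libraries. After PNX the order differed at 1 place, with Piezo1 (21.2 ± 0.0988) above Pkd2 (19.7 ± 0.374). Trpm7 and Piezo2 overlapped there, at 10.4 and 9.86 against 9.99 in both libraries. Of all genes tested, 84.9% had a lower mean FPKM over the 4 libraries than Pkd2 and 23.0% a lower one than Kcnk2.

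**Figure D2:**
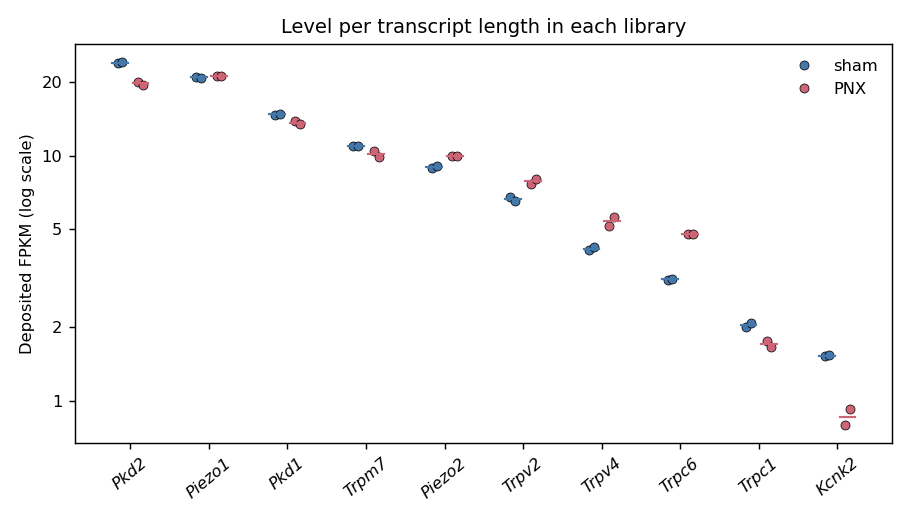
Deposited FPKM (log axis) of the 10 channel genes in the 2 sham (blue) and 2 post-PNX (red) libraries, in the order of the sham mean, with a line at each group mean. Levels run from 24.0 for Pkd2 to 1.53 for Kcnk2 in sham, and the red points of Piezo1 lie above those of Pkd2.

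Piezo1 and Piezo2 encode large trimeric cation channels that are opened by membrane tension. Piezo1 lies on chromosome 8 from 122481698 to 122551329 (mm10, minus strand), and its counted transcript NM_001037298 has 51 exons. It had 12648 and 12578 normalized counts in the sham libraries and 12751 and 12699 after PNX. The post-PNX values were above both sham values, as 81.2% of all genes had groups that did not overlap, but the gap was small. The log2 fold change was 0.01 (95% interval -0.03 to 0.05, edgeR adjusted p = 0.601), and only 3.18% of genes changed less. Exons of Ctu2, on the opposite strand, overlap 17.1% of the exon bases of Piezo1, and whether the counting used strand is not stated in the sources used here. Ctu2 had 2962 ± 43.4 (SD, n = 2) and 3182 ± 31.3 normalized counts (log2 fold change 0.10).

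The genes whose pattern over the 4 libraries was nearest to that of Piezo1, by Euclidean distance of centred log2 normalized counts among 13401 genes, were Anapc5 (0.00639), Bcam (0.00690) and Tomm70a (0.00899). All of them were nearly level, with a log2 fold change of 0.01 each, so that likeness here is likeness of a flat pattern.

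Piezo2, best known as the touch and airway stretch sensor of sensory neurons, had 7040 and 7142 normalized counts in sham and 7827 and 7852 after PNX. Both post-PNX libraries were above both sham libraries, and the log2 fold change was 0.14 ± 0.023 (SE, edgeR adjusted p = 1.89e-07). The ratio of Piezo1 to Piezo2 in FPKM was 2.35 and 2.30 in sham and 2.13 and 2.11 after PNX. Piezo1 thus stayed the higher of the pair in every library, at a smaller excess after PNX.

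**Figure D3:**
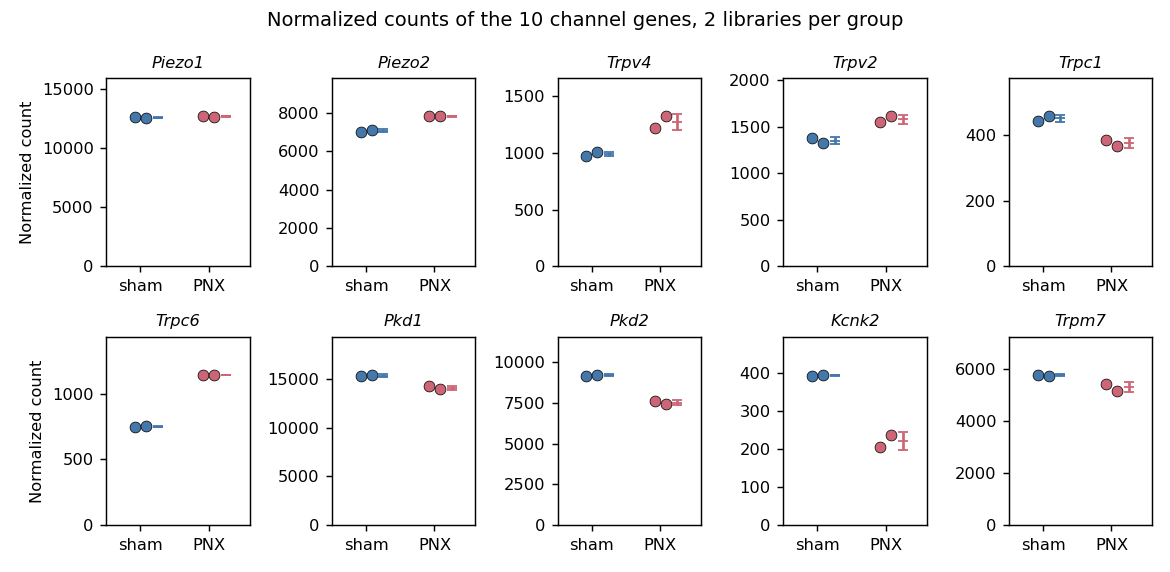
Normalized counts (y axis, from 0) of each channel gene in the 2 sham and 2 post-PNX libraries (points), with mean and SD beside them. The groups are apart in all 10 panels, as they are for 81.2% of all genes tested, most widely in Trpc6 and Kcnk2, and least in Piezo1.

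Trpv4 and Trpv2 encode vanilloid TRP cation channels. Trpv4, which is opened by cell swelling, shear and lipid messengers and carries calcium into lung ECs, lies on chromosome 5 from 114622152 to 114658421 (minus strand). It had 975 and 1005 normalized counts in sham and 1221 and 1325 after PNX, so that the lowest post-PNX library was above the highest sham library. The log2 fold change was 0.36 ± 0.049 (SE, edgeR adjusted p = 3.16e-09), and it lay between 0.30 and 0.42 with any 1 library left out. The part of other cell types in the rises of Trpv4 and Piezo2 was not tested.

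Trpv2, which is abundant in macrophages and is opened by stretch and heat, lies on chromosome 11 from 62574486 to 62600515 (plus strand). Its normalized counts were 1374 and 1323 in sham and 1546 and 1613 after PNX. The log2 fold change was 0.23 ± 0.043 (SE, edgeR adjusted p = 7.26e-06). Macrophage and monocyte markers moved with it. All 6 measured markers were higher after PNX, their summed level rose from between 163640 and 164398 to between 207733 and 208566 normalized counts, and none was at 0. The part of these cells in the rise of Trpv2 was not tested. The ratio of Trpv4 to Trpv2 in FPKM was 0.605 and 0.648 in sham and 0.674 and 0.7002 after PNX.

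Trpc1 and Trpc6 encode canonical TRP channels, which pass calcium downstream of receptors coupled to phospholipase C, and their RNA moved in opposite directions. Trpc6 is opened by diacylglycerol and is known for pulmonary vascular tone and endothelial permeability. It lies on chromosome 9 from 8544142 to 8680741 (plus strand). Its normalized counts were 747 and 752 in sham and 1145 and 1145 after PNX. The log2 fold change of 0.61 ± 0.052 (SE, edgeR adjusted p = 4.21e-16) was larger in size than that of 83.3% of genes.

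More than 1 transcript of Trpc6 was counted, with shared reads counted for each. The second, NM_001282086, had between 97.2% and 98.3% of the counts of NM_013838. The remaining one, NM_001282087, had 32.0% in both sham libraries and 33.7% and 34.7% after PNX. With each transcript as a feature of its own their log2 fold changes were 0.62, 0.62 and 0.71, and all passed the test.

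Trpc6 is also found in smooth muscle and platelets, and markers of both moved with it. Of 8 smooth muscle and pericyte markers 7 were higher, and their sum rose from between 24653 and 24918 to between 32549 and 32665 normalized counts. Of 5 platelet and megakaryocyte markers 4 were higher, from between 2487 and 2591 to between 3752 and 3793. The fibroblast sum rose more, from between 61430 and 62019 to between 223349 and 224945, with 5 of 7 markers higher. Of the other fibroblast markers, Pdgfra was lower (log2 fold change -0.23) and Tcf21 did not pass (0.02). No marker of these lists was at 0, and their part in the rise of Trpc6 was not tested.

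Trpc1, on chromosome 9 from 95705082 to 95750375 (minus strand), had 443 and 458 normalized counts in sham and 385 and 365 after PNX. The groups did not overlap, and the log2 fold change was -0.26 ± 0.077 (SE, edgeR adjusted p = 0.00272). This fall was the least firm of the 5, since DESeq2's Wald test gave an adjusted p of 0.0837. Leaving out the second sham library or the second post-PNX library raised edgeR's adjusted p to 0.0225 and 0.0356. The ratio of Trpc6 to Trpc1 in FPKM went from 1.56 and 1.52 in sham to 2.75 and 2.90 after PNX, the widest move of the pairs compared.

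Pkd1 and Pkd2 encode the polycystins, which form a complex in the primary cilium and are the genes mutated in autosomal dominant polycystic kidney disease. Pkd2, the channel subunit, on chromosome 5 from 104459450 to 104505819 (plus strand), had 9173 and 9238 normalized counts in sham and 7613 and 7431 after PNX. Both post-PNX values were below both sham values, as 81.2% of all genes had groups that did not overlap. The log2 fold change was -0.29 ± 0.023 (SE, edgeR adjusted p = 1.29e-17). Under scaling to the EC markers it was -0.08 ± 0.023 (edgeR adjusted p = 0.00413). Pkd1, the large receptor-like subunit on chromosome 17 from 24549834 to 24596508 (plus strand), had 15265 and 15451 normalized counts in sham and 14275 and 13972 after PNX. Its log2 fold change, which was above 0 under scaling to the EC markers, was -0.12 ± 0.020 (SE, edgeR adjusted p = 4.33e-07). Exons of Tsc2 on the opposite strand overlap 4.89% of the exon bases of Pkd1, and Tsc2 had a log2 fold change of -0.18. The ratio of Pkd1 to Pkd2 in FPKM was 0.612 and 0.615 in sham and 0.690 and 0.692 after PNX.

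Kcnk2 encodes TREK-1, a two-pore potassium channel opened by membrane stretch and polyunsaturated fatty acids, which draws the membrane potential down when it opens. It lies on chromosome 1 from 189207930 to 189402273 (minus strand). It had 392 and 395 normalized counts in sham and 204 and 236 after PNX. The log2 fold change was -0.84 ± 0.092 (SE, edgeR adjusted p = 3.7e-12), larger in size than that of 89.4% of genes, and its 95% interval of -1.03 to -0.66 reached the limit of -1. Leaving out each library in turn gave values between -0.94 and -0.74. The 4 transcripts counted shared nearly all their reads, with at least 95.2% of the counts of NM_010607 in every library and log2 fold changes between -0.86 and -0.83. Exons of an antisense gene, A430027H14Rik, overlap 277 of the 1642 exon bases (16.9%) of the annotated transcript, while the counted NM_010607 has 3502 bases. The symbol A430027H14Rik was not among those counted, so its own level is not known.

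Alveolar epithelial markers fell as well, all 6 of them, from sums of 279953 to 281011 to sums of 186417 to 186704 normalized counts. The 5 general capillary EC markers also fell, from 256301 to 257098 to between 178972 and 179610. No marker of these 2 lists was at 0. Of 5 markers of aerocytes, another capillary EC type, 2 were higher and 3 lower. All 4 ciliated cell, all 4 B cell and all 5 T cell markers were lower. Of 5 lymphatic EC markers tested 2 were higher and 1 lower, and the sum of their list was 0.651 of the sham sum. The part of any of these cells in the falls of Kcnk2 and Pkd2 was not tested.

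Trpm7 encodes a magnesium and calcium channel fused to a kinase, used by most cells. On chromosome 2 from 126791565 to 126876230 (minus strand), it had 5781 and 5735 normalized counts in sham and 5437 and 5159 after PNX. Its log2 fold change, likewise above 0 under scaling to the EC markers, was -0.12 ± 0.026 (SE, edgeR adjusted p = 7.75e-05). Without the second post-PNX library it was -0.08 with an adjusted p of 0.0245 from edgeR, and together with Trpc1 this left 3 members lower. Both of its transcripts had the same counts.

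**Figure D4:**
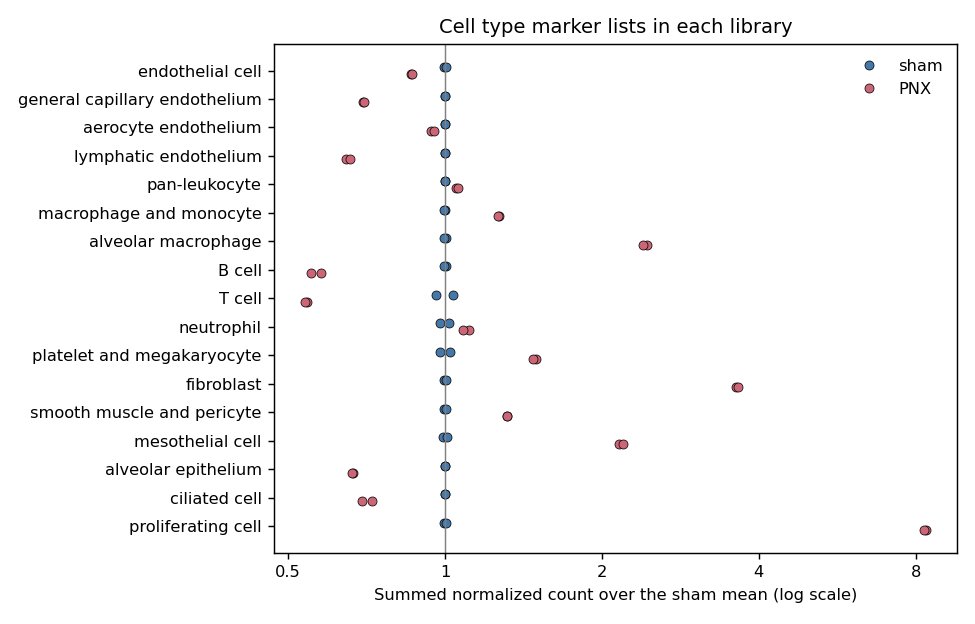
Summed normalized count of each cell type marker list over its sham mean (log axis) in the sham (blue) and post-PNX (red) libraries. The fibroblast sum after PNX is 3.63 times the sham mean and that of proliferating cells 8.35 times, while alveolar epithelial, B cell and T cell sums lie below 1.

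Related channels and their partners were counted in the same fit. Of 114 genes on these lists, 93 were tested, of which 18 were higher and 31 lower, beside 29.3% and 27.8% of all genes. Their median log2 fold change was -0.05. Scaling to the EC markers gave 44 higher and 19 lower, so the balance of directions over the lists follows the scaling.

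Among 13 other TRP channels 1 was higher and 4 were lower, with 3 and 4 under scaling to the EC markers. Mcoln2, an endolysosomal channel, rose from 114 ± 13.6 (SD, n = 2) to 254 ± 32.1 normalized counts (log2 fold change 1.16). Trpm6, a kin of Trpm7 known for magnesium uptake, had the largest fall of the well-counted genes, from 816 ± 33.0 to 501 ± 44.1 (-0.70). Trpm4, a calcium-activated sodium channel, fell from 2381 ± 129 to 1793 ± 11.5 (-0.41), and the others that fell were Trpc2 (-0.66) and Trpm3 (-1.17, down to 13.6 normalized counts), which did not pass in DESeq2 (adjusted p = 0.0777). Mcoln1, the lysosomal channel with the most counts, had a log2 fold change of 0.04 (edgeR adjusted p = 0.354). Of the other polycystin genes, 4 were tested and none passed in edgeR with TMM scaling or in DESeq2, although 2 were lower at an unadjusted p under 0.05, and under scaling to the EC markers 1, Pkd1l3, was higher (0.18, edgeR adjusted p = 0.00548). With TMM scaling Pkd1l3 and Pkd2l2 had log2 fold changes of -0.04 and -0.18.

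The other two-pore potassium channels did not move as 1 group. Of 7 tested, 2 were higher and 3 lower under both scalings. Kcnk3 (TASK-1), a channel of pulmonary arterial smooth muscle mutated in heritable pulmonary arterial hypertension, rose from 741 ± 21.0 (SD, n = 2) to 1396 ± 22.3 normalized counts (log2 fold change 0.92). The smooth muscle and pericyte markers given above rose too, and their part in this was not tested. Kcnk13 rose from 181 ± 2.19 to 406 ± 4.63 (1.17). Kcnk5 fell from 989 ± 43.8 to 586 ± 9.19 (-0.75) and Kcnk6, the one with the most counts, fell from 1840 ± 10.9 to 1451 ± 11.5 (-0.34), while Kcnk12 fell to 21.3 ± 3.28 (-1.05) but did not pass in DESeq2 (adjusted p = 0.0490). Kcnk4 and Kcnk10, the closest relatives of Kcnk2 and likewise stretch-activated, had at most 4 counts in any library and were not tested.

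Of 13 other stretch- or swelling-activated channels 2 were higher and 8 lower, and 3 higher and 4 lower under scaling to the EC markers. Scnn1a, a subunit of the epithelial sodium channel, fell from 6634 ± 96.4 (SD, n = 2) to 4909 ± 66.4 normalized counts (log2 fold change -0.43), and Scnn1b from 1509 ± 30.1 to 958 ± 36.3 (-0.66). They fell alongside the alveolar epithelial markers, whose part in this was not tested. Tmem63a, a stretch-activated channel, had -0.16, which was 0.05 and short of the test under the other scaling. Asic1 (0.38) and Asic3 (1.22, up to 30.6 ± 7.15 normalized counts) were the 2 that rose, and neither passed in DESeq2.

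Among 8 channel partners 2 were higher and 2 lower, and 5 higher and 1 lower under scaling to the EC markers. Cav1, the caveolar coat protein with by far the most counts, fell from 98015 ± 1705 (SD, n = 2) to 81208 ± 60.5 normalized counts (log2 fold change -0.27). Tmem120a had 0.43 and Os9, which holds Trpv4 in the endoplasmic reticulum, 0.04 (edgeR adjusted p = 0.122). Mdfi and Mdfic, whose products bind Piezo channels, had 0.38 and -0.08, and the value of Mdfic was 0.13 under the other scaling. Neither passed in DESeq2 (adjusted p = 0.0318 and 0.0611).

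Of 5 potassium channels that respond to flow or calcium in endothelium, 1 was higher and 1 lower. Kcnn4 (KCa3.1) rose from 231 ± 22.1 (SD, n = 2) to 442 ± 14.1 normalized counts (log2 fold change 0.93). Kcnn3 (KCa2.3) fell from 1886 ± 23.5 to 1567 ± 37.8 (-0.27), and under scaling to the EC markers it did not pass (-0.05). The flow-sensitive channel Kcnj2 had -0.06 (edgeR adjusted p = 0.389).

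The route from Piezo1 through ATP release to nitric oxide was represented by 8 genes, of which 2 were higher and 3 lower, and 5 higher and 1 lower under the other scaling. Panx1, a channel that releases ATP, rose from 318 ± 7.40 (SD, n = 2) to 531 ± 8.02 normalized counts (log2 fold change 0.74), and Nos3, the endothelial nitric oxide synthase, rose with a log2 fold change of 0.28. Gnaq, a G protein subunit downstream of purinergic receptors, fell from 11862 ± 22.0 to 8799 ± 178 (-0.43), while its relative Gna11 had -0.00 (edgeR adjusted p = 0.918). P2rx7 and Adm were the others that fell, with -0.16 and -0.39, and Adm did not pass in DESeq2 (adjusted p = 0.0240).

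**Figure D5:**
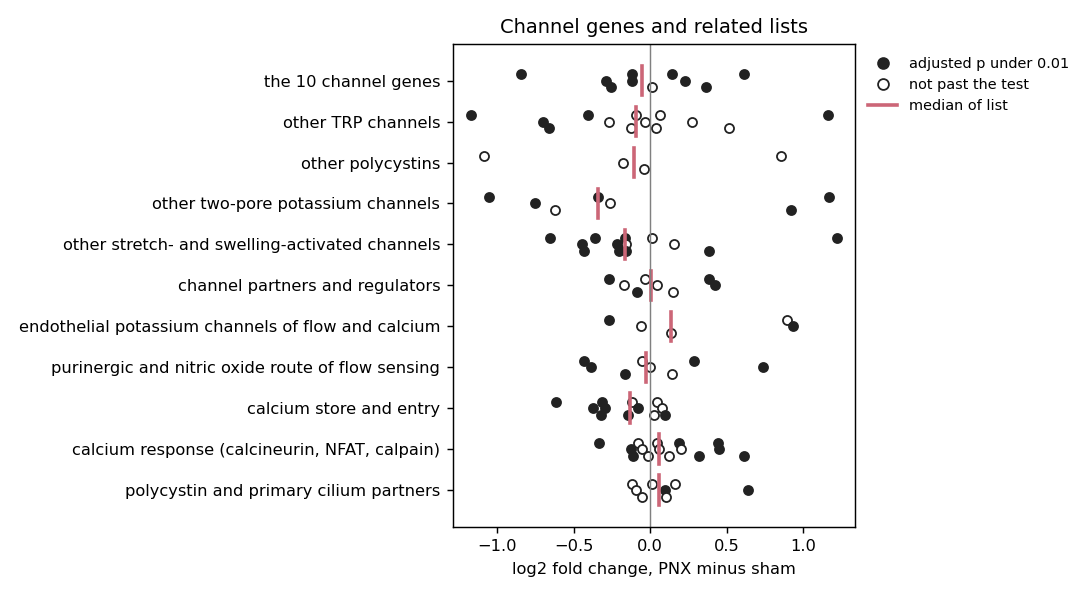
Log2 fold change, post-PNX minus sham, of the 10 channel genes and of each tested gene on the related lists, filled where the adjusted p is under 0.01, with a red line at the median of each list. List medians lie between -0.34 for the other two-pore potassium channels and 0.13 for the endothelial potassium channels, and filled points lie on both sides of 0 in most lists.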

How the data were processed

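The labels' protocols and the study's methods describe stranded mRNA libraries with paired-end reads mapped to mm10, and the submitters' processing notes name STAR, with the version and the counting program not given in the sources used here. For each library the authors deposited whole-number counts, FPKM and TPM for 33068 RefSeq transcripts. The FPKM deposited is scaled to a total in which a read is counted for each transcript it overlaps. It therefore serves only for order, ratios and comparisons within these files, and it was compared between groups without TMM scaling. The TPM deposited gave the same order of the members in sham. Counts were fitted in R 4.3.3 with edgeR 4.0.16 (filterByExpr, TMM, quasi-likelihood F test without covariates), with Benjamini-Hochberg adjustment over 16208 genes, and DESeq2 1.42.0 as an alternative. Normalized counts are scaled to the mean library size, with a prior count of 0.125 for log2 values. The standard error is the log2 fold change over the square root of F. The steps were tested on simulated data. Coordinates and exons are from GENCODE M21 on GRCm38 (mm10).

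The members, lists and tests were chosen with earlier results of these data known. Named were all members and, of each related list, the 2 genes with the most counts and the largest rise and fall among genes past the test that averaged 100 or more normalized counts. Trpc2, Trpm3, Kcnk12, Kcnk4, Kcnk10, Asic3, Mdfi, Mdfic, Nos3, P2rx7, Adm, Ctu2, Tsc2 and the levels of Sftpc and Lyz2 were chosen after their values were seen, and 1 gene that the rule names is not reported here. Libraries that share a replicate number come from different mice, and the alternatives were other scalings and filters, sums over transcripts, a replicate block, an adjusted p limit of 0.05 and each library left out. Each transcript as its own feature was added after the data were seen. A mean chi-square per gene of 1.74 between sham and 1.51 between post-PNX libraries, against 128 between groups, showed no library deposited in duplicate. Values so low cannot tell libraries of separate pools from libraries made of the same pool.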

Additional observations from a re-analysis of the deposited data

How the results depend on the processing

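Under DESeq2's size factors, library size alone, no filter, a mean of at least 50 counts, sums over transcripts and an adjusted p under 0.05, 4 members were higher and 5 lower, as in the main result, and no member passed a log2 fold change of 1 under any alternative run. DESeq2's Wald test gave 4 higher and 4 lower members, since Trpc1 did not pass, beside 3382 higher and 3138 lower of the 16208 genes. At an adjusted p under 0.05 in edgeR, 5412 of the 16208 genes were higher and 5243 lower. With the replicate block 4 were higher and 5 lower, and 4824 and 4617 of all genes, so the block changed no member's call. The deviations of same-numbered libraries correlated at only 0.03 over genes. Deviations within groups were little above counting error, so this value cannot show whether the numbers pair libraries. Scaling to the EC markers gave 7 higher and 2 lower members, 8732 higher and 1733 lower of all genes against 4745 and 4513, and 44 higher and 19 lower related genes against 18 and 31, and it turned the log2 fold change of Pkd1 to 0.094 and of Trpm7 to 0.095, because it moves all genes by about the same amount. With each library left out in turn there were 4 members higher and between 3 and 5 lower, between 17 and 19 related genes higher and between 28 and 31 lower, and between 4137 and 4314 of all genes higher and between 3887 and 4128 lower. A group left with 1 library was taken to vary like the other. Members near 400 normalized counts, Trpc1 and Kcnk2, had the widest errors.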

Other observations

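Genes that handle calcium after it enters the cell were counted too. Of 12 genes of calcium stores and entry, 1 was higher and 7 lower after PNX in edgeR's quasi-likelihood test (adjusted p under 0.01), beside 29.3% and 27.8% of all genes. Their median log2 fold change was -0.13, and 5 were higher and 5 lower under scaling to the EC markers, with a median of 0.08. Atp2a3 (SERCA3), a calcium pump of the endoplasmic reticulum, fell from 33646 ± 68.5 (SD, n = 2) to 21957 ± 41.6 normalized counts, a log2 fold change of -0.62, and it was lower under that scaling as well (-0.40). Atp2a2 (SERCA2), the pump found in most cells, rose from 13624 ± 132 to 14579 ± 48.0 (0.10). The inositol trisphosphate receptors Itpr1, Itpr2 and Itpr3, named after their values were seen, fell with log2 fold changes of -0.32, -0.38 and -0.32.

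Of 15 genes that respond to calcium, among them those of calcineurin, NFAT and calpain, 5 were higher and 3 lower, beside 29.3% and 27.8% of all genes. Their median log2 fold change was 0.06, and 14 were higher and 1 lower under scaling to the EC markers. Rcan1, a calcineurin inhibitor that NFAT induces, rose from 3377 ± 30.5 (SD, n = 2) to 5148 ± 21.6 normalized counts (log2 fold change 0.61). Nfatc3 fell from 5285 ± 63.3 to 4188 ± 53.7 (-0.33), and Capn2 from 19310 ± 72.3 to 17860 ± 140 (-0.11, and 0.10 under the other scaling). Of 8 partners of the polycystins and the primary cilium, 2 were higher, and 5 higher and 0 lower under scaling to the EC markers. The 2 were Bicc1 (from 1069 ± 68.7 to 1665 ± 56.9, 0.64) and Ganab (0.10). None was lower in edgeR or DESeq2, with 1 lower at an unadjusted p under 0.05, and Tulp3 had 0.10 (adjusted p = 0.0282 from edgeR), or 0.31 and past the test under the other scaling.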
